A study of Mus musculus with 28 samples.

Results

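The EpCAM split of SSEA1+ cells sorted on day 6 of mouse fibroblast reprogramming was examined on 4 arrays, chosen by their titles from the 28 arrays of the series. They comprised 2 arrays of EpCAM+ cells and 2 arrays of EpCAM- cells, and had an array design and a table of their own. Cells of both fractions derived from mouse embryonic fibroblasts (MEFs) taken at E13.5 from a reprogrammable strain carrying the OKSM cassette, which encodes Oct4 (Pou5f1), Klf4, Sox2 and c-Myc, and the Rosa26-M2rtTA allele, from which doxycycline turns the cassette on. Per the labels the strain carried 1 or 2 copies of each, and which applied to these 4 arrays is not given in the sources used here, nor is the background strain. The MEF and iPS arrays of the other table carry the name KH2 in their titles, and the 4 arrays do not. Both fractions were cultured with doxycycline in embryonic stem cell medium with serum and LIF, and both were labelled Thy1 negative, SSEA1 positive and GFP negative, so that by label the EpCAM gate was what differed. The gene behind the GFP reporter is not named in the labels. The labels list the Thy1.2 and the EpCAM antibodies both as PE conjugates and do not say how the Thy1 gate was set on cells stained for EpCAM, so the Thy1 status of the EpCAM+ fraction rests on its label. The remaining 24 arrays, on another design, held MEFs, sorted fractions of days 3, 6, 9 and 12 and induced pluripotent stem (iPS) cells. Their levels cannot be set against the 4 arrays, and only differences within each table were compared.

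SSEA1 is a carbohydrate antigen of the mouse embryonic stem cell surface, and reprogramming cells acquire it after losing the fibroblast antigen Thy1. EpCAM is a homophilic adhesion protein of simple epithelia and of pluripotent stem cells. Fibroblasts that become iPS cells pass through a mesenchymal-to-epithelial transition, in which matrix and contractile genes go down and cadherin, claudin, desmosome and keratin genes come on, while the endogenous pluripotency network is switched on stepwise, with some regulators early and others late.

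Nothing in the labels says that arrays 1 and 2 of a fraction came from separate cultures or animals, and the p-values therefore cover the spread between arrays alone, which may be technical. The small number of arrays limits the precision. All values below are RMA signals on the log2 scale. Arrays of the same fraction correlated with r = 0.998 (EpCAM+) and 0.997 (EpCAM-) over 22690 probe sets, controls included, against 0.994 to 0.995 between fractions. These values are a description across probe sets of the same arrays, which are not independent. The median signals of the 4 arrays lay between 6.55 and 6.58. Some control readings differed between the fractions. The 18S ribosomal RNA signal was 10.74 and 10.49 on the EpCAM+ arrays and 12.32 and 11.22 on the EpCAM- arrays. The 3′ minus 5′ difference of Gapdh was 0.73 and 0.77 in EpCAM+ and 0.62 and 0.31 in EpCAM- cells. That of Actb overlapped, at 0.69 and 0.78 in EpCAM+ and 0.71 and 0.49 in EpCAM- cells. The part of these control readings in the results was not tested.

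The gate was visible in the transcript of its own antigen. Epcam read 9.95 and 9.62 on the EpCAM+ arrays, against 6.80 and 6.89 on the EpCAM- arrays, a 7.67-fold difference (log2 2.94 ± 0.13 SE, limma adjusted p = 0.00116). Thy1, the antigen absent by label from both fractions, read 6.46 and 6.40 in EpCAM+ and 6.25 and 5.95 in EpCAM- cells, and its difference of 0.33 did not pass (adjusted p = 0.21). Fut9, one of the fucosyltransferases behind the SSEA1 epitope, read 6.08 and 5.66 in EpCAM+ and 5.70 and 6.19 in EpCAM- cells, so that its arrays overlapped. On the fibroblast side, Pdgfra (3.50 and 3.65 in EpCAM+, 3.55 and 3.44 in EpCAM- cells) and the matrix gene Postn (3.50 and 3.58 in EpCAM+, 3.62 and 3.73 in EpCAM- cells) were dim in both fractions. The intermediate filament gene Vim was bright, at 13.92 and 13.85 in EpCAM+ and 13.98 and 14.03 in EpCAM- cells. So was the contractile gene Acta2 (12.63 and 12.64 in EpCAM+, 12.97 and 12.87 in EpCAM- cells). This design holds no MEF array, so a dim level does not show that a gene was lost.

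EpCAM+ cells had more transcript of 8 pluripotency genes, 6 cell junction genes and 2 simple keratin genes, and less of 8 extracellular matrix genes. At a Benjamini-Hochberg adjusted p under 0.05 (limma) and at least a 2-fold difference, 93 genes were called (0.75% of 12394), 60 higher in EpCAM+ cells (0.484%) and 33 lower (0.266%). Without the minimum fold 174 (1.4%) were higher and 166 (1.34%) lower. The called shares of 0.484% and 0.266% are the background for the list counts below. In each of the 93 both EpCAM+ arrays lay on the same side of both EpCAM- arrays, as they did in 50.8% of all genes. The median difference of all genes was 0.02, and the differences ran from -1.72 to 3.42. The 2 arrays per fraction left 2 residual degrees of freedom, and the calls rest on the spread shared across genes. With each gene's own variance alone no gene passed by limma's ordinary least squares fit, with 1712 genes at an unadjusted p under 0.05. In the moderated fit 6 genes passed without EpCAM+ array 1 and 4 without EpCAM+ array 2, and without EpCAM- array 1 or EpCAM- array 2 no gene passed, with 2441 and 2261 genes at an unadjusted p under 0.05. All 93 genes kept their direction in each of these 4 fits, which was fixed in advance because their arrays do not overlap. In effect size, 81 to 88 of them stayed past 2-fold. When each gene was instead averaged over its probe sets, 70 of the 93 stayed called, and the genes named below that did not are given with that value. These are bulk samples, so fewer cells of a type and less RNA per cell cannot be told apart.

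**Figure D1:**
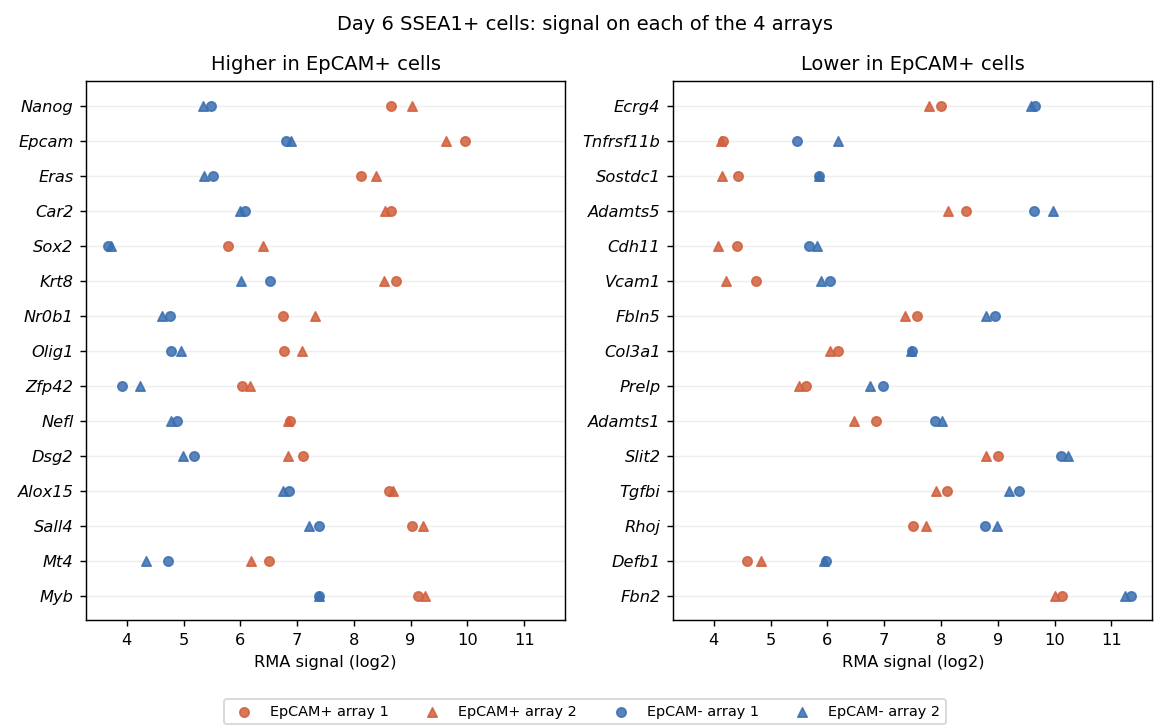
RMA signal (log2, horizontal axis) on each of the 4 arrays for the 15 genes that rose most and the 15 that fell most; orange points are EpCAM+ arrays and blue points EpCAM- arrays, with circles for array 1 and triangles for array 2. The 30 genes were chosen among called genes whose fractions do not overlap, which 50.8% of all genes do not, and Nanog has the largest difference (8.65 and 9.02 against 5.49 and 5.35).

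Of the pluripotency genes, 8 were higher in EpCAM+ cells. Nanog, a homeodomain factor at the centre of the network, read 8.65 and 9.02 in EpCAM+ cells, against 5.49 and 5.35 in EpCAM- cells, a 10.7-fold difference (log2 3.42 ± 0.14 SE, adjusted p = 0.00116) and the largest of all genes tested. Eras, a Ras-like protein of embryonic stem cells, read 8.13 and 8.39 in EpCAM+ and 5.53 and 5.37 in EpCAM- cells (log2 2.81 ± 0.12, adjusted p = 0.00116). In both genes the 2 EpCAM+ arrays lay clear of the 2 EpCAM- arrays, as in each of the 93 called genes. Nr0b1 (Dax1), a nuclear receptor cofactor, read 6.75 and 7.31 in EpCAM+ and 4.77 and 4.63 in EpCAM- cells (2.33 ± 0.19). Zfp42 (Rex1), a zinc finger marker of naive stem cells, read 6.04 and 6.17 in EpCAM+ and 3.91 and 4.23 in EpCAM- cells (2.03 ± 0.13). Sall4, a zinc finger factor that binds Nanog and Oct4, read 9.02 and 9.22 in EpCAM+ and 7.39 and 7.20 in EpCAM- cells (1.82 ± 0.11, adjusted p = 0.00352). The remaining called members were Mycn (1.71), Tdgf1 (1.68), the Nodal co-receptor also called Cripto, and the orphan receptor Esrrb (1.17). Averaged over their probe sets, Mycn (0.70, 3 probe sets) and Esrrb (0.52, 2 probe sets, adjusted p = 0.0503) were no longer called.

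These were 8 of 35 measured pluripotency genes, 0 were lower, and the median difference of the 35 was 0.53, against 0.02 over all genes. The shares called over all genes were 0.484% higher and 0.266% lower. The arrays of the fractions did not overlap in 80% of the 35, against 50.8% of all genes. The share was also 80% in p53 and senescence genes and 84.6% in cell cycle genes, lists with 0 called. Nodal, a TGF-beta family ligand, the nuclear receptor Nr5a2 and the Polycomb partner Jarid2 passed the p threshold with differences of 0.86, 0.77 and 0.61, under 2-fold. The mean of 4 probe sets of Nr5a2 was called, at 1.29. Other members did not pass. Dppa2 read 3.82 and 4.11 in EpCAM+ and 3.63 and 3.78 in EpCAM- cells (0.26, adjusted p = 0.315). Dppa4, its partner on chromatin, differed by 0.13, and the chromatin factor Utf1 by 0.22. Lin28a, which blocks let-7 processing, read 3.80 and 4.29 in EpCAM+ and 3.40 and 3.62 in EpCAM- cells (0.53, adjusted p = 0.177), and Otx2, a homeobox gene of the epiblast, had a difference of -0.24. Fgf4 was bright and near equal, at 9.13 and 8.94 in EpCAM+ and 9.31 and 9.13 in EpCAM- cells. Germline genes, 16 in all, had a median of 0.01 and 0 members past the threshold by limma at adjusted p, with or without the minimum fold.

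Among the cassette factors, Sox2 read 5.78 and 6.41 in EpCAM+ cells and 3.67 and 3.72 in EpCAM- cells (2.40 ± 0.20 SE, adjusted p = 0.0073). Pou5f1 read 6.66 and 6.91 in EpCAM+ and 5.62 and 6.01 in EpCAM- cells (0.98 ± 0.16, adjusted p = 0.037), just under 2-fold. Klf4 differed by -0.48 (adjusted p = 0.154) and Myc by 0.14 (adjusted p = 0.422). Whether these probe sets read cassette transcripts as well as the endogenous ones is not given in the sources used here.

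Epithelial genes higher in EpCAM+ cells included members of adherens and tight junctions and of desmosomes, simple keratins, 2 transcription factors and a membrane protease. Cdh1, which encodes E-cadherin, read 10.02 and 9.45 in EpCAM+ cells, against 8.11 and 7.99 in EpCAM- cells (1.69 ± 0.19 SE, adjusted p = 0.0149). The desmosomal cadherin Dsg2 read 7.11 and 6.84 in EpCAM+ and 5.18 and 4.98 in EpCAM- cells (1.89 ± 0.13, adjusted p = 0.00393). Of 6 Dsg2 probe sets 2 were called, and the mean of the 6 was 0.77, under 2-fold. Desmoplakin (Dsp) read 8.24 and 8.39 in EpCAM+ and 6.94 and 6.56 in EpCAM- cells (1.57 ± 0.14). Claudins 4 and 7, strand proteins of tight junctions, and Lsr, which marks tricellular junctions, differed by 1.71, 1.12 and 1.18. These 6 were the called members among 25 junction genes, 0 were lower, and the median of the list was 0.37. Over all genes 0.484% were called higher and 0.266% lower, and the median was 0.02. Several members did not pass. They included Ocln (0.55, adjusted p = 0.133), F11r (0.50, adjusted p = 0.0802), Cldn3 (0.44, adjusted p = 0.0644) and Cldn6 (0.35, adjusted p = 0.269).

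Krt8, a keratin of simple epithelia, read 8.73 and 8.53 in EpCAM+ and 6.53 and 6.02 in EpCAM- cells (2.36 ± 0.18 SE, adjusted p = 0.00498), the gap between fractions being wider than that between the EpCAM- arrays. Its filament partner Krt18 read 6.88 and 6.95 in EpCAM+ and 5.93 and 5.31 in EpCAM- cells (1.30 ± 0.20, adjusted p = 0.0317). Of the other simple keratins, Krt19 differed by 0.62 (adjusted p = 0.0796) and Krt7 by -0.08. Thus 2 of 5 measured keratins passed, against 0.484% of all genes called higher. Among 21 epithelial regulators 2 were higher, Ovol2 (1.56), a zinc finger repressor of mesenchymal genes, and Tfap2a (1.14), an AP-2 factor of surface ectoderm. The mean of 3 Tfap2a probe sets was 0.83, under 2-fold. Grhl2, a grainyhead factor that activates Cdh1 and claudin genes, passed the p threshold at 0.74 but not as the mean of its 4 probe sets (0.19, adjusted p = 0.31), and the splicing regulator Esrp1 did not, although its mean difference was 1.27 (5.57 and 4.84 in EpCAM+ and 4.01 and 3.86 in EpCAM- cells, adjusted p = 0.0532). The ETS factor Ehf went the other way, with -0.61 (adjusted p = 0.0291). The membrane protease matriptase, St14, read 7.80 and 7.70 in EpCAM+ and 6.50 and 5.99 in EpCAM- cells (1.51) and was the called member among 8 epithelial proteases and inhibitors.

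The windows around the starts of Nanog, Epcam and Krt8 are shown because these genes led the pluripotency, gate and keratin differences. They are RefSeq sequences on GRCm38.p6, 250 bases before to 50 after the gene start, on the gene's own strand, and capitals mark the motifs searched on both strands: the E-box CACCTG or CAGGTG, a sequence that SNAIL and ZEB repressors bind, the octamer TTTGCAT or ATGCAAA, which Oct4 binds, and the Sox motif ACAATG or CATTGT. Nanog lies on chromosome 6 (chr6:122707239-122707538, plus strand), Epcam on chromosome 17 (chr17:87635729-87636028, plus strand) and Krt8 on chromosome 15 (chr15:102004293-102004592, minus strand).
Nanog: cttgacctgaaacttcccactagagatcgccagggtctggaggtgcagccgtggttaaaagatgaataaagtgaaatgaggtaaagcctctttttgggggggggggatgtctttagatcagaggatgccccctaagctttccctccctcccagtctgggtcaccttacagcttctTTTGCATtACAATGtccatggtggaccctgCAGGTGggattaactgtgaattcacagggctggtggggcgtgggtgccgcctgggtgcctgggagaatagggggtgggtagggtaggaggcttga
Epcam: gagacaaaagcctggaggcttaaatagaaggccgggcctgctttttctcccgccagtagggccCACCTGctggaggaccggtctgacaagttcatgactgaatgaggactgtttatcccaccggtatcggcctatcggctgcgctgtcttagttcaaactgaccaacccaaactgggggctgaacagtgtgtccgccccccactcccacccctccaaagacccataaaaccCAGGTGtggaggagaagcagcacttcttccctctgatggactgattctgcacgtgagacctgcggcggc
Krt8: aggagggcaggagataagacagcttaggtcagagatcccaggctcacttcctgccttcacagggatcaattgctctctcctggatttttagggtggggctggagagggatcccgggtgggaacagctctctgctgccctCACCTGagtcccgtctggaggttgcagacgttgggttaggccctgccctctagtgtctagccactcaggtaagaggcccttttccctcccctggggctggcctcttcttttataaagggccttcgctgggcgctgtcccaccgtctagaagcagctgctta
The Nanog window held the octamer 75 bases and the Sox motif 67 bases before the gene start, separated by a single base, and an E-box 45 bases before it. The Epcam window held E-boxes 187 and 19 bases before the start, and the Krt8 window held 1 at 111 bases before it. Windows were at hand for 45 of the 60 genes higher in EpCAM+ cells, and 16 of them (35.6%) held this E-box, against 1 of 20 windows (5%) of lower genes, 18.8% of 9888 windows of genes on the array and 20.1% of all 27025 windows. The octamer was in 4 of the 45 windows of higher genes (8.89%), 4 of the 20 of lower genes (20%), 3.61% of windows of genes on the array and 4.6% of all windows. The Sox motif was in 3 of the 45 (6.67%), 1 of the 20 (5%), 8.27% of windows of genes on the array and 12.8% of all windows. A match is a description of the letters and shows no binding.

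Less transcript in EpCAM+ cells was seen for matrix proteins and their modifiers. Col3a1, a fibrillar collagen chain, read 6.19 and 6.04 in EpCAM+ and 7.48 and 7.48 in EpCAM- cells (-1.36 ± 0.09 SE, adjusted p = 0.00393). The second Col3a1 probe set was dim and not called (-0.22, adjusted p = 0.291), and the mean of both was -0.79, under 2-fold. Fbln5, an elastic fibre organiser, read 7.58 and 7.37 in EpCAM+ and 8.96 and 8.80 in EpCAM- cells (-1.40 ± 0.11, adjusted p = 0.00572), and the proteoglycan Fmod 11.29 and 11.12 in EpCAM+ and 12.49 and 12.30 in EpCAM- cells (-1.19). Of 32 matrix genes 8 were lower and 0 higher, against 0.266% and 0.484% of all genes. The others called were Tnc (-1.21), Mgp (-1.18), Thbs2 (-1.13), Bgn (-1.13, and -0.75 as the mean of 3 probe sets, under 2-fold) and Col1a2 (-1.11). The median of the list was -0.22, and Col1a1 (-0.17), Fn1 (-0.21) and Postn (-0.13) did not pass. Fn1 was bright (11.47 and 11.16 in EpCAM+, 11.58 and 11.47 in EpCAM- cells). Col1a1 was dim (4.13 and 4.18 in EpCAM+, 4.41 and 4.22 in EpCAM- cells), and so was Postn. For Col1a1 and Postn a difference could therefore be missed. Dcn, a small proteoglycan, was higher, with 7.17 and 6.90 in EpCAM+ and 6.33 and 6.17 in EpCAM- cells (0.78 ± 0.12, adjusted p = 0.0346), under 2-fold.

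Of the genes lower in EpCAM+ cells, Ecrg4, which encodes the secreted peptide precursor augurin, differed most. Ecrg4 read 8.01 and 7.79 in EpCAM+ cells, against 9.65 and 9.58 in EpCAM- cells (-1.72 ± 0.10 SE, limma adjusted p = 0.00352). Tnfrsf11b, the decoy receptor osteoprotegerin, read 4.16 and 4.13 in EpCAM+ and 5.46 and 6.18 in EpCAM- cells (-1.68 ± 0.22, adjusted p = 0.0219), with a wider spread between the EpCAM- arrays. The mean of its 2 probe sets was -0.97, just under 2-fold. Sostdc1, a secreted antagonist of BMP and WNT ligands, had -1.56 (-1.01 as the mean of 2 probe sets, still called), and the aggrecanases Adamts5 and Adamts1 -1.52 and -1.29. On the cell surface, Cdh11, a cadherin of mesenchyme, read 4.41 and 4.08 in EpCAM+ and 5.67 and 5.81 in EpCAM- cells (-1.50 ± 0.13, adjusted p = 0.00772). Vcam1, an adhesion receptor for leukocytes, had -1.48, but its other 2 probe sets read -0.20 and -0.08 and were not called, and the mean of all 3 was -0.59, under 2-fold. These were the 2 called members among 15 mesenchymal surface genes (median -0.12), in which Cd44 (-0.33, adjusted p = 0.172) and Cdh2 (-0.43, adjusted p = 0.185) did not pass. The guidance ligand Slit2 (-1.28), the GTPase Rhoj (-1.26), the proteoglycan Prelp (-1.31), the antimicrobial peptide gene Defb1 (-1.25) and the microfibril gene Fbn2 (-1.22) completed the 15 lower genes of largest difference. As means of 2 probe sets, Slit2 (-0.95), Prelp (-0.78) and Defb1 (-0.91) were under 2-fold.

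No mesenchymal transcription factor of 21 reached 2-fold at an adjusted p under 0.05 (limma), and their median was -0.32. Below 2-fold, 3 passed the p threshold: Prrx2 (-0.90), Meox2 (-0.90) and Prrx1 (-0.76), homeobox genes of limb and paraxial mesenchyme. The EMT repressors had differences of -0.57 (Zeb1, adjusted p = 0.057), -0.76 (Zeb2, adjusted p = 0.0798), -0.39 (Snai2, adjusted p = 0.141) and 0.23 (Snai1, adjusted p = 0.221), and none passed. Of 17 contractile genes 1 was lower, the myosin light chain gene Myl9 (8.51 and 8.45 in EpCAM+ and 9.45 and 9.53 in EpCAM- cells, -1.01), and the median was -0.22. TGF-beta signalling genes included 2 lower members of 17, the secreted target Tgfbi (-1.27) and the activin antagonist Fst (-1.18). The receptor Tgfbr2 passed the p threshold at -0.66 but not as the mean of 3 probe sets (-0.35, adjusted p = 0.118). Among 16 BMP genes the ligand Bmp2 was lower (5.87 and 5.31 in EpCAM+ and 6.61 and 6.73 in EpCAM- cells, -1.08, adjusted p = 0.0442), a call that was lost with the replicate number as a block (adjusted p = 0.0571). No gene of 20 in WNT signalling was called by limma (median -0.01), although 1 in each direction had an adjusted p under 0.05.

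**Figure D2:**
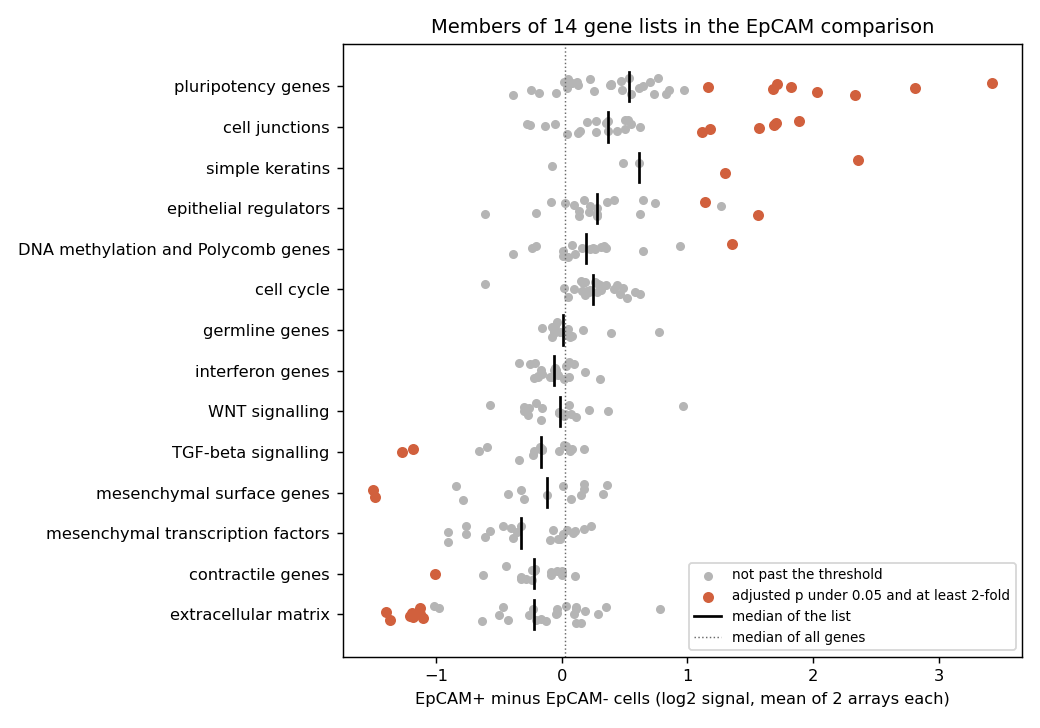
Difference between EpCAM+ and EpCAM- cells (log2 signal, horizontal axis) for the members of 14 gene lists; each point is a gene, orange points passed the threshold, the black bar is the median of the list and the dotted line the median of all genes. Called pluripotency and junction genes reach up to 3.42 and 1.89, and called matrix genes reach down to -1.40.

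Few chromatin, growth and metabolic genes were called. Tet1, a dioxygenase that oxidises methylcytosine, read 6.75 and 6.64 in EpCAM+ and 5.38 and 5.30 in EpCAM- cells (1.36 ± 0.09 SE, adjusted p = 0.00393) and was the called member of 18 DNA methylation and Polycomb genes, although the mean of its 2 probe sets was 0.61, under 2-fold. The de novo methyltransferase Dnmt3b (0.94, adjusted p = 0.00953) and the maintenance cofactor Uhrf1 (0.65, adjusted p = 0.0447) passed the p threshold below 2-fold. Cell cycle genes leaned towards EpCAM+ cells, with 25 of 26 differences positive, a median of 0.25 and 0 called by limma (2 with no minimum fold), against 55.7% positive differences over all genes. In DNA replication 30 of 32 were positive (median 0.27, 0 called by limma, 3 with no minimum fold). In the cell cycle list the proliferation marker Mki67 was the member with a negative difference, at 9.85 and 9.77 in EpCAM+ and 10.60 and 10.23 in EpCAM- cells (-0.61, adjusted p = 0.0824). Median differences were 0.04 for glycolysis, 0.02 for oxidative phosphorylation, -0.06 for interferon genes, 0.02 for immediate early genes and -0.02 for p53 and senescence genes, with 0 called by limma in each.

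Imprinted genes differed in both directions. Peg3, a paternally expressed zinc finger gene, read 10.96 and 10.91 in EpCAM+ and 9.95 and 9.68 in EpCAM- cells (1.12 ± 0.11 SE, adjusted p = 0.012), and Mest, also paternally expressed, 8.93 and 8.93 in EpCAM+ and 7.85 and 8.07 in EpCAM- cells (0.97, adjusted p = 0.0131). The maternally expressed Meg3 read 8.53 and 8.79 in EpCAM+ and 9.54 and 9.56 in EpCAM- cells (-0.89, adjusted p = 0.0195), and Cdkn1c, a maternally expressed cyclin kinase inhibitor, had -0.83 (adjusted p = 0.0155). Of these, Peg3 alone of the 23 measured imprinted genes reached 2-fold, and the median was -0.11. Kit, the stem cell factor receptor, was the called member of 16 surface markers of reprogramming stages (7.23 and 6.97 in EpCAM+ and 6.21 and 5.95 in EpCAM- cells, 1.02), with a mean of 0.64 over 2 probe sets, under 2-fold.

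The 15 higher genes of largest difference also held members of no pluripotency or epithelial list. Car2, carbonic anhydrase II, read 8.65 and 8.55 in EpCAM+ and 6.08 and 6.00 in EpCAM- cells (2.56 ± 0.09 SE, adjusted p = 0.00116). Olig1, a basic helix-loop-helix factor of oligodendrocytes, read 6.76 and 7.08 in EpCAM+ and 4.78 and 4.95 in EpCAM- cells (2.06), and Nefl, a neurofilament subunit, 6.87 and 6.84 in EpCAM+ and 4.89 and 4.78 in EpCAM- cells (2.02). Nefl was the called member of 17 neural markers, whose median was 0.11. The lipoxygenase Alox15 (8.62 and 8.68 in EpCAM+, 6.87 and 6.75 in EpCAM- cells, 1.84), the metallothionein Mt4 of stratified epithelia (1.82) and Myb, a progenitor transcription factor (9.13 and 9.26 in EpCAM+, 7.39 and 7.39 in EpCAM- cells, 1.80), were likewise called higher. Among 19 stratified epithelium markers Krtdap (1.57) and Lgals7 (1.31) were higher, while the defining basal genes Krt5 (0.06), Krt14 (-0.02) and Trp63 (0.09) were dim and near equal. The summed linear signal of all 19 markers, Krtdap and Lgals7 included, was 9.63 on both EpCAM+ arrays and 9.10 and 9.16 on the EpCAM- arrays, on the log2 scale. Of the 19, 12 lay in the dimmest 25% of genes. Plet1 (0.89, or 0.53 as the mean of 2 probe sets) and Rhox6 (0.76) of 14 trophoblast markers, Esam (0.63) of 16 endothelial and Dab2 (-0.94) of 18 endoderm markers passed the p threshold below 2-fold. In these 3 lists, and among 19 macrophage, 20 skeletal muscle and 9 erythroid markers, 0 genes were called by limma, and the last 3 held no member past the p threshold. Many of these were dim: 13 macrophage, 12 skeletal muscle and 7 erythroid markers lay in the dimmest 25% of genes. The part of other cell types in the differences was not tested.

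The EpCAM differences were set beside 3 comparisons on the 24 arrays, which share no array with the 4, over the 11485 genes on both designs. SSEA1+ cells of days 9 and 12 (1 array each) were compared with those of day 6 (2 arrays). Every gene called in the EpCAM split and held on both designs differed in the same direction there. Both later arrays were titled M2 and the day 6 arrays M2 and M3, so day is partly confounded with that title number. Of 56 genes higher in EpCAM+ cells, 34 (60.7%) were called higher in the later cells, against 1.11% of all genes on both designs (1.1% of the 11807 genes of that table), and they were 26.6% of the 128 genes called higher there. Of 32 lower genes 12 (37.5%) were called lower later, against 1.31% (1.29% of the table), and 8% of the 150 called there. Without the day 12 array these counts were 17 and 0. All 56 had a positive later difference, as did 59% of all genes, and all 32 a negative one, as did 41%. Conversely, the 128 genes higher in the later cells had a median EpCAM difference of 0.54 and the 150 lower ones -0.37, against 0.02 for all. The EpCAM difference was positive in 92.2% of the 128 and negative in 86.7% of the 150. It was positive in 55.7% of all 12394 genes. Across all 11485 genes the 2 differences correlated with r = 0.527 (Spearman 0.393), a description over genes that are not independent replicates and, for 9891 of them, share the probe set.

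**Figure D3:**
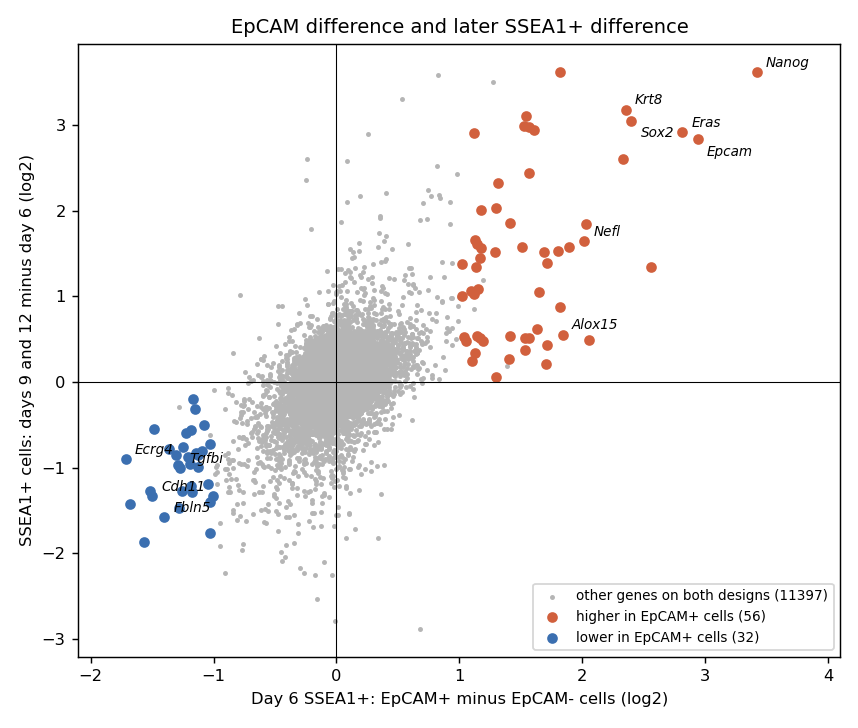
EpCAM+ minus EpCAM- cells of day 6 (log2, horizontal axis) against SSEA1+ cells of days 9 and 12 minus day 6 on the other array design (log2, vertical axis); each point is a gene, orange for the 56 genes called higher and blue for the 32 called lower in EpCAM+ cells. The orange points all lie above 0 and the blue points all below 0 on the vertical axis, with Nanog at 3.42 and 3.62.

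Among pluripotency genes on both designs, the EpCAM split held part of those that came on later. Of 32 members 7 were called higher in EpCAM+ cells and 15 in the later SSEA1+ cells, with 6 in both: Nanog (3.42 in the EpCAM split and 3.62 later), Eras (2.81 and 2.92), Nr0b1 (2.33 and 2.60), Zfp42 (2.03 and 1.85), Sall4 (1.82 and 3.62) and Esrrb (1.17 and 1.45). Another 9 were called only in the later comparison, among them Dppa5a (0.83 in the EpCAM split and 3.59 later), Lin28a (0.53 and 3.30), Dppa2 (0.26 and 2.90), Otx2 (-0.24 and 2.60) and Dppa4 (0.13 and 1.45). Mycn was called in the EpCAM split alone (1.71 and 0.43). The difference between the 2 comparisons was not tested, since they lie on separate designs. Of the cassette factors, Sox2 had 2.40 in the EpCAM split and 3.05 later, and Pou5f1 0.98 and 2.44.

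**Figure D4:**
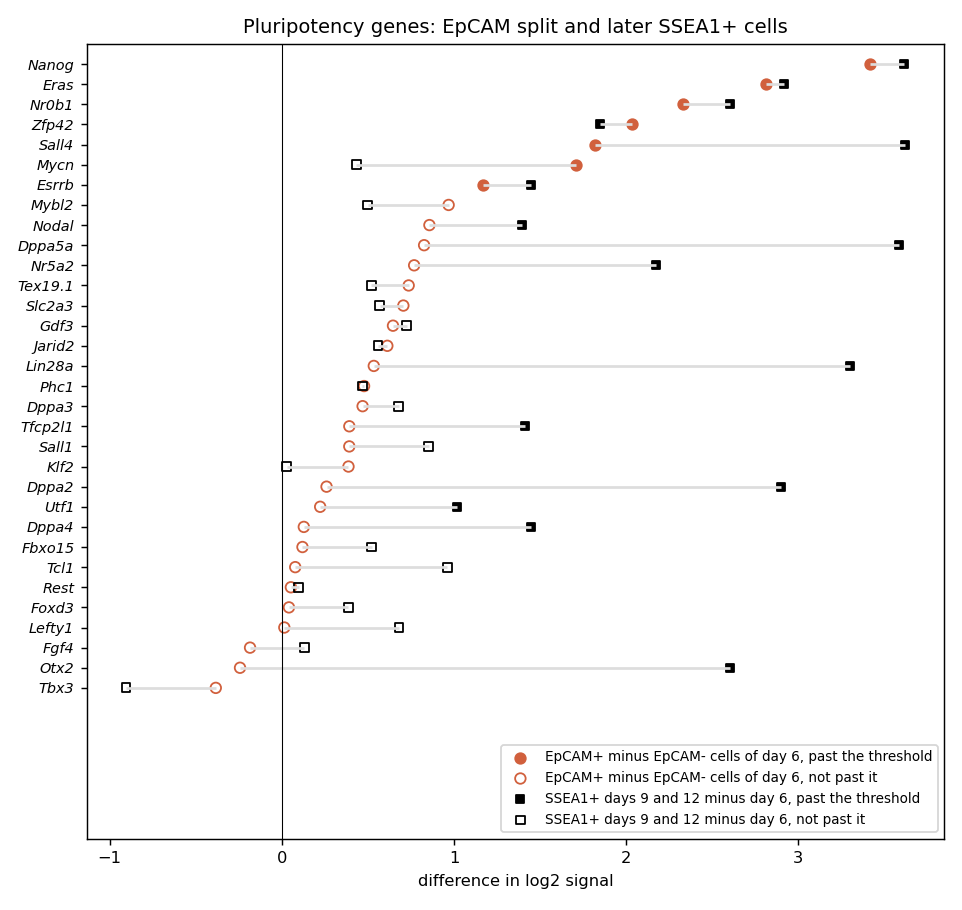
Differences in log2 signal (horizontal axis) of the 32 pluripotency genes on both designs, with orange circles for EpCAM+ minus EpCAM- cells of day 6 and black squares for SSEA1+ cells of days 9 and 12 minus day 6; filled marks passed the threshold. In Nanog, Eras, Nr0b1 and Zfp42 the marks lie close together, whereas in Lin28a, Dppa2 and Otx2 the square lies at 2.60 or above and the circle between -0.24 and 0.53.

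Of 24 junction genes on both designs, 6 were called in the EpCAM split and 8 in the later cells, 5 of them in both: Cdh1 (1.69 in the EpCAM split and 1.51 later), Dsg2 (1.89 and 1.58), Dsp (1.57 and 2.45), Cldn7 (1.12 and 2.91) and Lsr (1.18 and 1.57). Cldn4 was the member called in the EpCAM split alone (1.71 and 0.21). Of 28 matrix genes on both designs, 7 were called lower in EpCAM+ cells and 6 in the later cells, with Fbln5 (-1.40 and -1.58) the gene in both. Mesenchymal transcription factors had 0 called in the EpCAM split and 3 of 20 called lower later, among them Prrx1 (-0.76 and -1.96). Of 21 epithelial regulators on both designs, 2 were called higher in EpCAM+ cells and 6 in the later cells. Tfap2a (1.14 and 1.61) was the regulator in both, and Ovol2 was called in the EpCAM split alone (1.56 and 0.52). Esrp1 and Grhl2, not called in the EpCAM split, had later differences of 3.50 and 2.25.

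Between iPS cells (3 arrays) and MEFs (2 arrays), 42 of the 56 genes higher in EpCAM+ cells (75%) were called higher, against 15.5% of genes on both designs (15.4% of the table), and 28 of the 32 lower genes (87.5%) were called lower, against 15.4% (15.3% of the table). The shared genes were 2.36% of the 1776 genes called higher in iPS cells and 1.58% of the 1774 called lower. For Nanog, Sox2 and Cdh1 the iPS minus MEF differences were 6.82, 8.12 and 7.77, and for Fbln5 and Cdh11 -6.01 and -4.83. Genes called in opposite directions numbered 3: Peg3 (1.12 in the EpCAM split, -1.30 between iPS cells and MEFs), and, chosen after their values were seen, the retinoic acid binding protein gene Crabp2 (1.13 and -1.56) and the zinc transporter gene Slc39a8 (1.65, or 0.93 as the mean of 2 probe sets, under 2-fold, and -1.30). No lower gene was called higher in iPS cells. The sign matched in 48 of the 56 and 28 of the 32, against 50.5% positive and 49.5% negative differences of all genes.

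Day 6 SSEA1+ cells were also set against Thy1+ cells of that day (2 arrays each), a sort by the other markers. Of the 56 higher genes 16 (28.6%) were called higher in SSEA1+ cells, against 5.89% of genes on both designs (5.89% of the table), and of the 32 lower genes 21 (65.6%) were called lower, against 6.31% (6.25% of the table). The shared genes were 2.37% of the 676 genes called higher in SSEA1+ cells and 2.9% of the 725 called lower. Slc39a8 was called the opposite way (-1.44, adjusted p = 0.0409 in limma). The sign matched in 46 of the 56 and 30 of the 32, against 44.5% positive and 55.5% negative differences of all genes. This comparison and the later SSEA1+ comparison share the 2 day 6 SSEA1+ arrays. For Cdh1 the difference was 3.25 by SSEA1 against 1.69 by EpCAM, and for Dsp 2.47 against 1.57. Sox2 (0.35 by SSEA1 and 2.40 by EpCAM), Zfp42 (0.06 and 2.03), Dsg2 (0.10 and 1.89) and Mycn (-0.33 and 1.71) had the larger difference by EpCAM; these were picked after their values were seen, and the difference was not tested. Called in the same direction in all 3 comparisons and in the EpCAM split were 12 higher genes, Cdh1, Dsp, Epcam, Eras, Kit, Krt8, Krtdap, Lsr, Nanog, Nr0b1, Sall4 and the reticulon gene Rtn1, and 10 lower genes, among them Adamts5, Cdh11, Fbln5, Fst, Myl9, Tgfbi and Tnfrsf11b. Another 8 higher genes, Alox15 among them, and 2 lower genes, Bmp2 and Pax1, were called in the EpCAM direction in 0 of the 3 comparisons.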

How the data were processed

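The authors deposited log2 signals in both tables, and the submitters' processing notes name RMA. Background correction, quantile normalization and probe summary are part of RMA, its version is not given in the sources used here, and scanner files were not used here. RMA aligns the distributions of the arrays in a table, so a difference shared by most genes would not show. The 22690 probe sets were named through the platform annotation (20393 with 1 gene symbol, 691 with several, 1606 with none). Each of 12394 genes was represented by its probe set of highest mean signal (4958 genes had more than 1). Differences were fitted with limma 3.58.1 in R 4.3.3 on the 4 arrays (2 residual and 3.99 prior degrees of freedom). The 24-array table was fitted with 15 group means. Calls required 2-fold or more and an adjusted p under 0.05 (Benjamini-Hochberg, all genes of the table).

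Named genes were the 15 of largest difference in each direction among called genes whose arrays do not overlap, and any list member. The members and lists were chosen with earlier results of these data known. Alternatives were no minimum fold, leaving out the dimmest 25% of genes, quantile and median scaling, the mean of a gene's probe sets, other variance priors, a replicate block and leaving out each array. The fit was tested on simulated data. Promoter windows and figures were made in Python (pandas, matplotlib).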

Additional observations from a re-analysis of the deposited data

Results flagged for a closer look

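Among 2246 probe sets with several symbols or none, which no comparison above uses, 5 passed the threshold in a fit of all 22690 probe sets, in which 131 passed. Of these 5, 1 was higher and 4 were lower in EpCAM+ cells, with 1 carrying several symbols and 4 none. The higher probe set read 9.32 and 9.49 in EpCAM+ and 8.26 and 8.40 in EpCAM- cells. The lower ones differed by -1.04 to -1.56. No group had enough arrays for a test of single outlying arrays.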

How the results depend on the processing

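All 93 called genes kept their direction under each alternative that tested them (91 were tested without the dimmest 25%). Their arrays do not overlap, so leaving out 1 array could not reverse them. A changed threshold, variance prior or block and the removal of dim genes leave the difference itself as it was. Counts of calls changed as follows. With no minimum fold, 340 genes passed between EpCAM+ and EpCAM- cells (174 higher, 166 lower), 6624 between iPS cells and MEFs, 666 between SSEA1+ cells of days 9 and 12 and day 6, and 3568 between SSEA1+ and Thy1+ cells of day 6. Of the EpCAM calls, 116 higher and 121 lower genes were then shared with iPS cells, 65 and 57 with later SSEA1+ cells, and 67 and 89 with the day 6 sort. With no variance prior 0 genes passed between the EpCAM fractions in limma's ordinary least squares fit (0 higher, 0 lower, 1712 at an unadjusted p under 0.05), so that 0 were shared with each other comparison. Leaving out 1 of the 4 EpCAM arrays gave 0 to 6 calls (0 to 6 higher, and 0 lower). The 6 without EpCAM+ array 1 were Nanog, Eras, Epcam, Sox2, Nr0b1 and Car2, and the 4 without EpCAM+ array 2 were Nanog, Epcam, Eras and Car2. With 1 array of either table left out, shared genes ranged from 0 to 42 (higher) and 0 to 28 (lower) with iPS cells, 0 to 35 and 0 to 18 with later SSEA1+ cells, and 0 to 16 and 0 to 23 with the day 6 sort. In such fits the lone array of a group is assumed to vary like the others. The later SSEA1+ comparison had 76 calls without the day 12 array and 457 without the day 9 array, against 282, and the day 6 sort 960 without Thy1+ array M2 and 2558 without Thy1+ array M3, against 1433. Quantile scaling (99 calls), median scaling (99), a trended and robust prior (97), leaving out those dim genes (93) and the mean of all probe sets (74) stayed within 1.5 times the 93 calls, although the mean kept 70 of those 93, and these scalings put the median of all genes between 0.01 and 0.02. Whether arrays of the same replicate number were paired was not settled. Their deviations correlated with r = 0.0321 for the 1 pair of the 4 arrays, and a single pair cannot exclude pairing. For 21 pairs of the other table r ran from -0.207 to 0.214, with 5 of them over 0.1. With the replicate block 96 genes passed, and Bmp2 (-1.08, adjusted p = 0.0571) was the named gene that lost its call there. Levels near the floor of the array limit what can be seen of dim genes.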

Other observations

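Beyond the lists and the 15 genes of largest difference, several called genes are known from the nervous system or from the epidermis. They were picked after their values were seen and have no test as a group. The zinc finger genes Zic2 and Zic5 differed by 1.55 and 1.54: Zic2 read 6.62 and 6.56 in EpCAM+ and 5.04 and 5.04 in EpCAM- cells, and Zic5 7.80 and 7.69 in EpCAM+ and 6.10 and 6.33 in EpCAM- cells. Zic2 was also higher in the later SSEA1+ cells (3.10), and Zic5 did not pass there (0.37). Neurod1, a neuronal helix-loop-helix factor, differed by 1.63, Gsx1, a homeobox gene, by 1.40, and the POU factor gene Pou3f1 by 1.05 (0.85 as the mean of 2 probe sets, under 2-fold). Of epidermal genes, transglutaminase 1 (Tgm1) differed by 1.41, dermokine (Dmkn) by 1.41 and the kinase gene Ripk4 by 1.60 (0.97 as the mean of 2 probe sets, under 2-fold). Ripk4 (2.94) and Dmkn (1.86) were also called in the later SSEA1+ cells, and Tgm1 was not (0.54).

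On the lower side, 2 complement protease genes, C1ra and C1s1, differed by -1.14 and -1.09. C1ra read 7.99 and 7.69 in EpCAM+ and 9.00 and 8.97 in EpCAM- cells, and C1s1 7.48 and 7.23 in EpCAM+ and 8.40 and 8.49 in EpCAM- cells. The oncostatin M receptor gene Osmr differed by -1.17 (-0.78 as the mean of 2 probe sets, under 2-fold) and the interleukin 1 antagonist gene Il1rn by -1.03. Hoxc8 read 7.64 and 7.49 in EpCAM+ and 8.48 and 8.72 in EpCAM- cells (-1.03), and was lower in the later SSEA1+ cells as well (-1.76).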
